A study of Rattus norvegicus with 30 samples.

Results

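RNA from bone marrow mesenchymal stem cells (BMSCs) of Sprague Dawley rats was compared after 3 h in osteogenic medium (OS_3h, 3 samples) and after 3 h in adipogenic medium (AD_3h, 3 samples), which is 6 of the 30 samples of the series. The samples were chosen by these labels alone, and both media were set against each other directly, so that no undifferentiated sample entered the test. Undifferentiated cells at 0 h (CON, 3 samples), cells after 3 h in chondrogenic medium (CH_3h, 3 samples) and both media at 12 and 72 h served as reference levels. According to the methods, the cells came from 3-week-old female rats, were used at passage 2 and were grown in commercial differentiation media whose composition is not given in the sources used here, and each sample pooled 3 cultures. The labels do not tie a sample to an animal, so the p-values measure the spread between these pooled samples.

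BMSCs are marrow stromal cells that can become bone-forming osteoblasts, fat-storing adipocytes or cartilage-forming chondrocytes. Adipogenic commitment is classically driven by the nuclear receptor Pparg with the C/EBP factors, and osteogenic commitment by Runx2 and Sp7, with Notch, BMP, Wnt and cell tension acting on the choice. Adipogenic media in general hold a glucocorticoid, insulin and an agent that raises cAMP, whereas osteogenic media hold a glucocorticoid, ascorbate and a phosphate source. Genes that respond directly to such signals can change within hours, ahead of the genes of the mature cell.

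The samples held between 6329536 and 9046719 reads, of which the listed genes took 60.7% to 63.8% in adipogenic and 63.1% to 68.8% in osteogenic medium. Levels are counts per 1000000 reads (CPM), and differences are osteogenic minus adipogenic on the log2(CPM + 1) scale with the standard error of the fit, so that changes of genes of a few CPM are understated. The third osteogenic library stood apart. It differed by more than 1 log2 unit from the mean of the other osteogenic libraries in 332 genes, against 98 and 109 for those and 17 to 52 for the adipogenic libraries. Over the tested genes it correlated at 0.979 and 0.978 with the other osteogenic libraries, which correlated at 0.992 with each other. Those correlated at 0.971 to 0.974 with the adipogenic libraries. Where sample values are given below, the 3 osteogenic ones are therefore in order, with that library last. Some genes that every cell uses were listed with almost no reads in all 6 samples, among them Tpi1 with 0, Akt1 with at most 1 and Vim with at most 10 reads, while Pgk1 had at least 11087 and the stromal surface gene Thy1 at least 35792. A value near 0 in this table therefore does not show that a gene was silent, and no fold is given against a group at 0 to 3 reads.

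The labelled cell type could be checked in part, since many markers are not among the listed genes. The summed level of the 8 stromal markers in the files, almost all of it Itgb1, Thy1 and Cd44, ran from 21323 to 23218 CPM in osteogenic and from 16532 to 17829 CPM in adipogenic medium. The other stromal markers, Pdgfrb, Pdgfra, Eng, Vcam1 and Twist1, reached no more than 1.77 CPM in any of the 6 samples, and Vcam1 had no read. Haematopoietic markers, 3 of 12 in the files, summed to at most 0.313 CPM in osteogenic and 1.55 CPM in adipogenic medium, and endothelial markers, 3 of 8 in the files, to at most 3.95 and 4.31 CPM. Smooth muscle and pericyte markers, 6 of 8 in the files, summed to between 554 and 623 CPM in osteogenic and between 389 and 403 CPM in adipogenic medium, and to between 122 and 135 CPM in CON. The 6 adipocyte markers, almost all of it Lpl, summed to between 268 and 284 CPM in osteogenic and between 563 and 610 CPM in adipogenic medium, below the 664 CPM or more of CON. The 7 osteoblast markers summed to at most 5.33 and 8.18 CPM. The part of the pericyte and stromal markers in the differences below was not tested, and in such bulk samples fewer cells of a type and less RNA per cell cannot be told apart.

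Of 3189 genes tested with limma, 293 (9.19%) differed by at least 1 log2 unit at an adjusted p under 0.05, of which 110 (3.45%) were higher in osteogenic and 183 (5.74%) higher in adipogenic medium. These 293 genes are called different in what follows. In 107 genes the filter was passed through the adipogenic and in 37 through the osteogenic samples alone, and 93 of these were called. For such a gene the filter itself kept the groups apart, so its call and adjusted p are not independent support. Among the called genes named below these are Hcar2, Angptl7, Dlk2, Nppb, Sox11, Csf2 and Sema6d on the osteogenic side. On the adipogenic side they are Stab1, MGC94891, Zfp541, Gramd1b, L3mbtl1, Gem, Pde7b, Calr, Nr1d1, Efna2, Clmn and Arrb1. Groups of 3 did not overlap in 1140 of the tested genes (35.7%), and in each of the 293. Large differences were about as many on each side, with 31 genes at least 2 log2 units higher in osteogenic and 33 in adipogenic medium, but low levels were not: neither group's mean reached 10 CPM in 114 of the 183 genes higher in adipogenic medium against 48 of the 110 higher in osteogenic medium and 1353 of all 3189 genes tested. Without the third osteogenic library the test called 115 and 232 genes, and without the third adipogenic library 78 and 119.

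**Figure D1:**
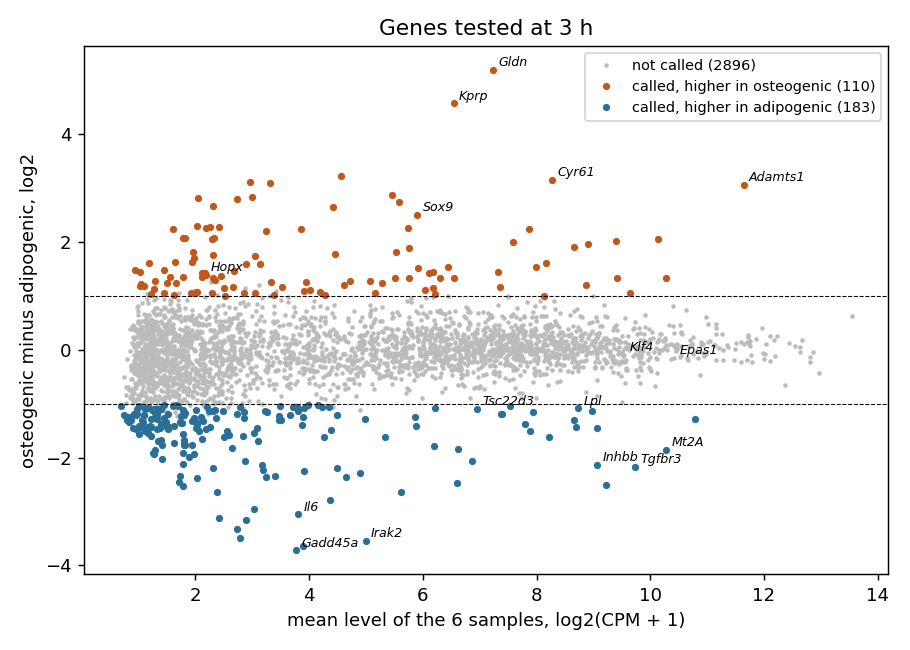
Each point is a gene of the 3189 tested at 3 h. The horizontal axis gives its mean level over the 6 samples as log2(CPM + 1) and the vertical axis the difference of osteogenic minus adipogenic on the log2 scale, with dashed lines at 1 and -1. The 110 called genes above 0 spread over all levels, with Gldn and Kprp on top, while many of the 183 below lie at the low end.

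Genes of matrix proteins and of receptors were among the 12 with the largest difference higher in osteogenic medium. The gene of the largest difference was Gldn, which encodes gliomedin, an extracellular matrix protein known for clustering channels at the nodes of nerve fibres. Gldn stood at 291, 300.5 and 290.1 CPM in osteogenic and at 6.30, 8.81 and 6.25 CPM in adipogenic medium, a 41.3-fold higher mean (log2 difference 5.20 ± 0.16, adjusted p = 3.08e-07). Its level was 1.86, 1.11 and 1.67 CPM in CON and 235, 241 and 227 CPM in chondrogenic medium, so that all 3 media lay above the undifferentiated samples, the adipogenic one by a few CPM only. Kprp, a proline-rich protein known from the cornified layer of skin, started from a high level instead. It was listed at 772, 767 and 811 CPM in CON, at 175, 179 and 180.4 CPM in osteogenic and at 8.18, 5.51 and 6.10 CPM in adipogenic medium (log2 difference 4.57 ± 0.17, adjusted p = 6.69e-07), so that it was lower than CON in both media and by far more in the adipogenic one.

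Cyr61 and Ctgf, which encode the secreted matricellular proteins CCN1 and CCN2, are classic readouts of cell tension through the YAP and TEAD factors and of growth factor signalling. Cyr61 measured 611, 527 and 531 CPM in osteogenic and 69.4, 50.4 and 66.2 CPM in adipogenic medium, 8.98-fold apart (log2 difference 3.16 ± 0.15, adjusted p = 1.97e-06), beside 458, 495 and 520.0 CPM in CON. The osteogenic samples were thus close to the starting level and the adipogenic samples under it. Ctgf measured 37.3, 28.9 and 41.4 CPM against 3.54, 5.66 and 5.35 CPM (log2 difference 2.66 ± 0.24, adjusted p = 1.01e-04) and 16.8, 11.8 and 19.6 CPM in CON, where osteogenic medium lay above and adipogenic medium below the starting level. Adamts1, a secreted protease that cuts aggrecan and versican, was the most abundant gene of the 12 with the largest difference in this direction. Its level was 8703, 8679 and 8337 CPM in CON, 5488, 5393 and 6250.2 CPM in osteogenic and 673, 656 and 722 CPM in adipogenic medium (log2 difference 3.06 ± 0.10, adjusted p = 3.08e-07). Of the tested collagens, laminins and matrix proteins, 3 of 18 were called, Cyr61, Ctgf and Col5a1, all higher in osteogenic medium (3.45% of all genes were called in that direction), with a median difference over the list of 0.02 beside -0.02 over all genes tested. Col5a1, a fibrillar collagen chain, lost its call without any 1 adipogenic library (adjusted p up to 0.117) and also without the third osteogenic library, where its log2 difference was 0.94.

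Promoter sequence is shown for 3 of the genes higher in osteogenic medium that hold the letters CATTCC, the core of the M-CAT element to which TEAD factors are known to bind, and for Il6, which is higher in adipogenic medium and holds the full cAMP response element TGACGTCA. The windows are the 250 bases before the annotated start in RefSeq (assembly GRCr8), written 5′ to 3′ on the gene's strand, with the motif on either strand in capitals. They lie at chr2:237225690-237225939 on the minus strand for Cyr61, at chr1:22624615-22624864 on the minus strand for Ctgf, at chr5:163699758-163700007 on the plus strand for Nppb and at chr4:5894576-5894825 on the minus strand for Il6. The motifs were picked after the values were seen.
Cyr61 (RefSeq symbol Ccn1): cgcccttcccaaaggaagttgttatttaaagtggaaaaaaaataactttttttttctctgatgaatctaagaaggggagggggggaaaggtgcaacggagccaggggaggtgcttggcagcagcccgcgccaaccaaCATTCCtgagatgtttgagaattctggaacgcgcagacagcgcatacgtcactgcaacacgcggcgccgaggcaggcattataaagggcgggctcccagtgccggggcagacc
Ctgf (RefSeq symbol Ccn2): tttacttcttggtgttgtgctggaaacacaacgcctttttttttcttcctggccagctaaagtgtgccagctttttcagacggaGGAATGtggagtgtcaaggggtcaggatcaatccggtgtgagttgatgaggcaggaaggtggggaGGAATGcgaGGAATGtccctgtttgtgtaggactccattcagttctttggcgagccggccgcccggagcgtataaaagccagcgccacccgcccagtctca
Nppb: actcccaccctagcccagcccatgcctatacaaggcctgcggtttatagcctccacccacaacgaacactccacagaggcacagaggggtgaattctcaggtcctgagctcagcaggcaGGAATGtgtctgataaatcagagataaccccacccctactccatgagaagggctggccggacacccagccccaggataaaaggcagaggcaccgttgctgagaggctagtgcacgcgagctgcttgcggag
Il6: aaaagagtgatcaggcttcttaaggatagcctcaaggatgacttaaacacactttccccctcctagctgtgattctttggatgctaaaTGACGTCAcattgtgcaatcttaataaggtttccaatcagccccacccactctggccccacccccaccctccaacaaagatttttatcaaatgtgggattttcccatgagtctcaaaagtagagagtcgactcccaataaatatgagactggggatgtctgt
Ctgf held 3 matches of CATTCC, all on the reverse strand, starting 166 to 92 bases before the start, and Cyr61 and Nppb held 1 each, 113 and 131 bases before it. Over windows of 300 bases, which add the first 50 bases of the transcript, CATTCC occurred in 14.2% of all 33469 promoter windows and in 10.9% of the 2468 tested genes with a matched promoter. It was present in 15 of 80 genes (18.8%) called higher in osteogenic medium, among them Cyr61, Ctgf, Nppb, Kprp, Id3, Ajuba, Epha2, Vcl and Tpm1, and in 13 of 135 genes (9.63%) called higher in adipogenic medium. TGACGTCA occurred in 3.32% of the tested genes, in 2 of 80 (2.5%), with Epha2 among them, and in 3 of 135 (2.22%), with Il6 among them. Such matches describe letters in the window and are not sites of binding.

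Of the 12 genes, 3 encode receptors that couple to G proteins. F2rl1, the protease-activated receptor PAR2, measured 37.1, 33.7 and 54.1 CPM in osteogenic and 2.65, 3.78 and 4.02 CPM in adipogenic medium (log2 difference 3.23 ± 0.25, adjusted p = 4.88e-05). Ptgir, the prostacyclin receptor, was lower than its CON level of 129, 126 and 128 CPM in both media but stayed at 60.5, 58.9 and 109 CPM in osteogenic against 7.07, 8.50 and 12.5 CPM in adipogenic medium (log2 difference 2.87 ± 0.28, adjusted p = 1.65e-04). Hcar2, the niacin and hydroxybutyrate receptor, measured 8.77, 9.01 and 14.4 against 0.553, 0.787 and 0.595 CPM (log2 difference 2.80 ± 0.27, adjusted p = 1.41e-04). In each of these 3 genes the third osteogenic library was the highest of the 6 compared. Akap12, a scaffold that tethers protein kinase A, measured 72.7, 63.5 and 112 against 9.62, 13.8 and 10.1 CPM (log2 difference 2.75 ± 0.24, adjusted p = 9.68e-05), and it kept this direction at 12 h and 72 h, with log2 differences of 2.74 and 2.56. Nppb, the natriuretic peptide BNP, was listed at 4.70, 5.53 and 8.58 CPM in osteogenic medium and at 0 in every adipogenic and undifferentiated sample (adjusted p = 1.41e-04).

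Angptl7, Dlk2 and Hoxd13 complete the 12 genes. Angptl7, a secreted angiopoietin-like protein, measured 12.1, 13.7 and 12.9 CPM in osteogenic and 0.442, 0.629 and 0.744 CPM in adipogenic medium (log2 difference 3.12 ± 0.23, adjusted p = 3.95e-05), beside 490.5, 500.4 and 504 CPM in chondrogenic medium. Dlk2, a delta-like membrane protein related to the preadipocyte factor Dlk1, measured 7.21, 9.80 and 22.5 against 0.553, 0.944 and 0.892 CPM (log2 difference 2.84 ± 0.38, adjusted p = 0.00121). Both genes were at most 0.758 CPM in CON and highest in chondrogenic medium, where Dlk2 measured 53.2, 61.2 and 47.8 CPM.

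**Figure D2:**
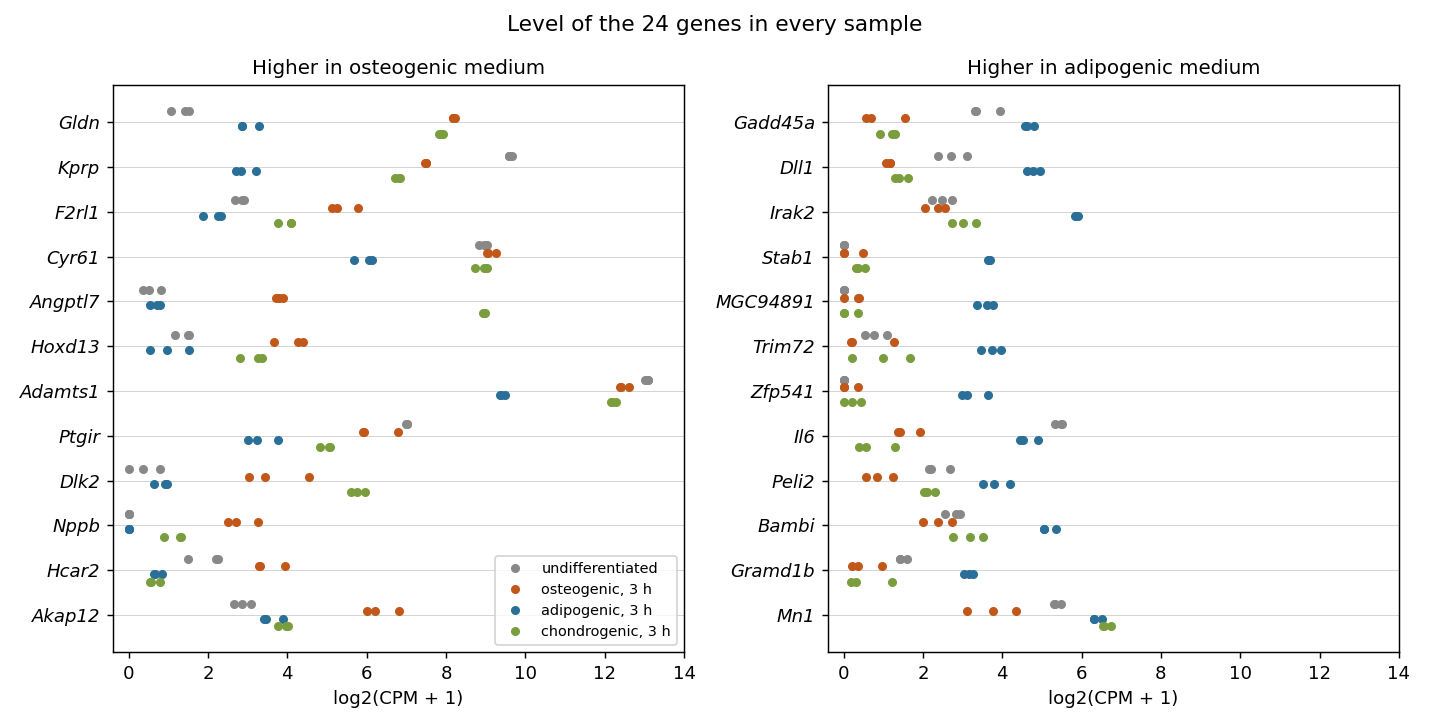
Each point is 1 sample of a gene, with the level as log2(CPM + 1) on the horizontal axis and 4 colours for undifferentiated cells and for 3 h in osteogenic, adipogenic and chondrogenic medium. The left panel holds the 12 genes with the largest difference higher in osteogenic and the right panel the 12 higher in adipogenic medium. Osteogenic and adipogenic points do not overlap for any of the 24, while the undifferentiated points lie between the media, above both or below both, depending on the gene.

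The 12 genes with the largest difference higher in adipogenic medium included the signalling genes Dll1, Irak2, Peli2 and Bambi, the cytokine Il6 and the stress gene Gadd45a. Gadd45a, which acts in growth arrest and DNA repair, measured 22.7, 23.6 and 26.8 CPM in adipogenic and 0.627, 0.474 and 1.94 CPM in osteogenic medium (log2 difference -3.72 ± 0.30, adjusted p = 6.36e-05). Its CON level of 9.02, 9.19 and 14.4 CPM lay between them, so that the media stood on opposite sides of the start. Gadd45b, of the same family, went the other way, with 88.1, 92.3 and 116 CPM in osteogenic and 39.1, 45.9 and 45.8 CPM in adipogenic medium (log2 difference 1.15 ± 0.16, adjusted p = 0.00123).

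Dll1, a Notch ligand, measured 26.4, 29.9 and 23.5 CPM in adipogenic and 1.25, 1.11 and 1.24 CPM in osteogenic medium (log2 difference -3.64 ± 0.22, adjusted p = 1.27e-05), again on both sides of the 5.59, 7.66 and 4.25 CPM of CON. The difference was of like size later, with -3.56 at 12 h (adjusted p = 0.00127) and -3.74 at 72 h (adjusted p = 1.05e-04). The receptors split. Notch1 measured 14.8, 13.1 and 17.7 CPM in adipogenic and 4.23, 6.16 and 6.36 CPM in osteogenic medium (log2 difference -1.30 ± 0.24, adjusted p = 0.00604), and Notch2, the more abundant, 530.5, 491 and 520.5 CPM and 1068, 1022 and 1138 CPM, a difference in the other direction (1.06 ± 0.10, adjusted p = 1.06e-04). Notch2 fell just under the threshold, at 0.99, when the listed genes of each sample were scaled to 1 common sum. Hes6 and Hey2, of the families of Notch target genes, were tested and not called.

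Semaphorin and ephrin genes differed in both directions. Sema7a, a membrane-anchored semaphorin that binds integrins, measured 533, 503 and 878 CPM in osteogenic and 166, 149 and 177 CPM in adipogenic medium (log2 difference 1.91 ± 0.20, adjusted p = 2.21e-04), both above the 12.3, 9.47 and 7.58 CPM of CON. Epha2, an ephrin receptor kinase, measured 629.6, 628 and 1029 against 176, 200.5 and 192 CPM (log2 difference 1.96 ± 0.19, adjusted p = 1.36e-04). Plxna2, a semaphorin receptor subunit, and Sema6d were also called higher in osteogenic medium, with log2 differences of 1.29 ± 0.19 (adjusted p = 0.00232) and 1.28 ± 0.29 (adjusted p = 0.0175). Sema6d lay at no more than 3.48 CPM and lost its call without any 1 of 5 libraries (adjusted p up to 0.0791). With Gldn this made 6 of the 17 tested semaphorin, axon guidance and Notch genes higher in osteogenic medium and 2, Dll1 and Notch1, higher in adipogenic medium, beside 3.45% and 5.74% of all genes tested. Of the 6, Sema6d passed the filter through the osteogenic samples alone. Genes of the same families outside that list, named after their values were seen, were higher in adipogenic medium, namely Sema3g (log2 difference -1.45 ± 0.38, adjusted p = 0.0317), Plxnc1 (-1.68 ± 0.28, adjusted p = 0.00404), Epha4 (-1.32 ± 0.29, adjusted p = 0.0145) and Efna2 (-1.19 ± 0.28, adjusted p = 0.0215), all at no more than 7.24 CPM in any of the 6 libraries. Plxnc1 kept its call without any 1 library, whereas Sema3g, Epha4 and Efna2 each lost it without some single libraries (adjusted p up to 0.144, 0.0723 and 0.0922).

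Irak2 and Peli2 act downstream of the interleukin-1 and Toll-like receptors, as a member of the IRAK family and as a ubiquitin ligase. Irak2 measured 59.5, 56.3 and 57.0 CPM in adipogenic and 4.23, 3.16 and 4.84 CPM in osteogenic medium (log2 difference -3.54 ± 0.20, adjusted p = 9.25e-06), the latter at the CON level of 3.72, 4.60 and 5.61 CPM. Peli2 measured 10.4, 12.9 and 17.3 against 0.783, 0.474 and 1.38 CPM (log2 difference -2.95 ± 0.29, adjusted p = 1.61e-04). Il6, the cytokine interleukin-6, measured 20.8, 29.0 and 22.0 CPM in adipogenic and 2.82, 1.58 and 1.66 CPM in osteogenic medium, 11.8-fold apart (log2 difference -3.05 ± 0.26, adjusted p = 8.42e-05). With 43.4, 39.3 and 44.1 CPM in CON, Il6 was lower in both media than at the start, and lowest in the osteogenic one. Ccl2, the chemokine that draws monocytes, measured 667, 687 and 724 against 328, 329 and 292 CPM (log2 difference -1.13 ± 0.10, adjusted p = 1.01e-04), from 1428, 1257 and 1429 CPM in CON. Both genes kept the direction at 12 h and 72 h, Il6 with log2 differences of -2.19 and -2.54 and Ccl2 with -1.96 and -2.24.

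The remaining inflammatory genes did not follow Il6 as a group. Of 18 tested, 2 were higher in adipogenic and 3 in osteogenic medium, beside 5.74% and 3.45% of all genes tested, with a median difference of 0.27. Tnfrsf12a, the receptor of the cytokine TWEAK, measured 1603, 1572 and 2264 CPM in osteogenic and 451, 399.8 and 436 CPM in adipogenic medium (log2 difference 2.06 ± 0.15, adjusted p = 3.64e-05), and it differed more at 12 h, by 3.41. Csf2, the growth factor GM-CSF, was listed at 2.19, 1.74 and 1.94 CPM in osteogenic and at 0, 0 and 0.297 CPM in adipogenic medium (adjusted p = 0.00454). It passed the filter through the osteogenic samples alone, and without it the median of the list was 0.12. Irf5, an interferon regulatory factor, had 3.76, 6.48 and 10.8 against 1.88, 2.05 and 1.78 CPM, and its call (log2 difference 1.37 ± 0.34, adjusted p = 0.0243) was lost when any 1 adipogenic library was left out (adjusted p up to 0.105). Nfkbia, Nfkb1, Rela, Relb and the chemokines Cxcl1, Cxcl2, Cxcl3, Cxcl6 and Cxcl10 were tested and not called.

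In the BMP, TGF-beta and activin pathway, 5 of 11 tested genes were higher in adipogenic medium and 2 in osteogenic medium, beside 5.74% and 3.45% of all genes tested, with a median difference of -0.29. A pseudoreceptor, a co-receptor and a ligand subunit had the largest differences on the adipogenic side. Bambi, a pseudoreceptor that blocks BMP and TGF-beta signalling, measured 32.4, 32.3 and 40.3 CPM in adipogenic and 4.23, 3.0 and 5.67 CPM in osteogenic medium (log2 difference -2.79 ± 0.24, adjusted p = 9.68e-05), the latter near the 6.59, 6.13 and 4.85 CPM of CON. Tgfbr3, the co-receptor betaglycan, measured 1351, 1374 and 1433 against 282, 282 and 365 CPM (log2 difference -2.17 ± 0.12, adjusted p = 9.25e-06). Inhbb, the subunit of activin B, measured 860.2, 892 and 876 against 194, 201 and 199 CPM (log2 difference -2.14 ± 0.09, adjusted p = 1.52e-06). Both abundant genes straddled their CON levels, of 853, 852 and 885 CPM for Tgfbr3 and 528, 569.7 and 506 CPM for Inhbb, with adipogenic medium above and osteogenic medium below.

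The Id inhibitors of bHLH factors, which are targets of BMP signalling, were divided. Id3 measured 305, 303 and 558 CPM in osteogenic and 88.4, 65.6 and 80.3 CPM in adipogenic medium (log2 difference 2.25 ± 0.23, adjusted p = 2.21e-04), both below the 683, 689 and 769.7 CPM of CON, and the third osteogenic library was the highest of the 6. Id2 measured 19.9, 19.4 and 18.6 CPM in adipogenic and 8.93, 10.9 and 6.36 CPM in osteogenic medium (log2 difference -1.09 ± 0.23, adjusted p = 0.0121), and it was no longer called without any 1 adipogenic library (adjusted p up to 0.07) or without the third osteogenic library, where the log2 difference was -0.90. The growth factors Gdf15 and Gdf6 differed in opposite directions, by -1.26 ± 0.32 (adjusted p = 0.0267) and 1.43 ± 0.35 (adjusted p = 0.0246), at no more than 8.02 CPM, and both calls were lost without some single libraries (adjusted p up to 0.116 and 0.111). In the Wnt pathway 1 of 8 tested genes was called, beside 9.19% of all genes, the feedback inhibitor Axin2, with 2.98, 2.53 and 4.01 CPM in osteogenic and 0.553, 0.157 and 1.34 CPM in adipogenic medium (log2 difference 1.35 ± 0.31, adjusted p = 0.0191, and up to 0.0886 with 1 adipogenic library left out).

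Of 10 tested genes that respond to cAMP through the factor CREB, 6 were higher in adipogenic medium and 1, Akap12, in osteogenic medium, beside 5.74% and 3.45% of all genes tested, with a median difference of -1.06 beside -0.02 over all genes. Gem and Pde7b passed the filter through the adipogenic samples alone and so had to differ, and without them the median was -0.88. Plau, the protease urokinase, measured 182, 176 and 203 CPM in adipogenic and 38.1, 37.0 and 58.7 CPM in osteogenic medium (log2 difference -2.07 ± 0.19, adjusted p = 1.01e-04), both above the 1.72, 1.53 and 3.49 CPM of CON. The 3 phosphodiesterases Pde10a, Pde7b and Pde3b, which break down cyclic nucleotides, and the small GTPase Gem were called too, with log2 differences of -1.47 for Gem, -1.46 for Pde10a and -1.04 for Pde3b and, for Pde7b, 1.22, 1.57 and 2.38 CPM against at most 3 reads in osteogenic medium. These 4 genes lay at no more than 7.41 CPM. The sixth was Id2, described above, which was lower in both media than its mean of 40.4 CPM in CON. The mean of Pde7b was 1.78 CPM in CON and 1.72 CPM in adipogenic medium. Gem, Pde10a and Pde3b had higher means in adipogenic medium than in CON. Without some single libraries Pde10a, Pde7b, Pde3b and Id2 lost their calls (adjusted p up to 0.0584, 0.0707, 0.116 and 0.07), which leaves Plau called under each. Gem kept its call too, but it entered each of these fits through the same filter, so that is no support. Prkar2b, Pde4b and Areg were tested and not called, and Nr4a1 and Crem, among the best-known CREB targets, had too few reads for the test.

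Of the glucocorticoid-responsive genes, 5 of 26 names passed the filter, 2 called in each direction, beside 9.19% of all genes called. Tsc22d3, also known as GILZ and induced by glucocorticoids in most tissues, measured 181, 156 and 163 CPM in adipogenic and 76.9, 60.2 and 100.4 CPM in osteogenic medium (log2 difference -1.09 ± 0.18, adjusted p = 0.00423). Both media stood above the 31.1, 26.9 and 25.3 CPM of CON, and without the second osteogenic library the difference was -0.91 and not called. Mt2A, a metallothionein induced by metals and by glucocorticoids, measured 2011, 1730.1 and 2089 CPM in adipogenic and 503, 509 and 598 CPM in osteogenic medium (log2 difference -1.85 ± 0.12, adjusted p = 1.56e-05), from 342, 316 and 410.0 CPM in CON. Tgm2, the crosslinking enzyme tissue transglutaminase, was in the other direction, with 7.83, 10.9 and 25.9 against 2.21, 1.73 and 2.23 CPM (log2 difference 2.21 ± 0.39, adjusted p = 0.00498), where the third osteogenic library was the highest sample.

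In the insulin and IGF pathway 2 of 13 tested genes were called, both higher in adipogenic medium, beside 9.19% of all genes called and 5.74% in that direction. Irs2, an adaptor of the insulin receptor whose gene is repressed by insulin, measured 155, 164 and 174 CPM in adipogenic and 24.8, 31.3 and 30.6 CPM in osteogenic medium, 5.69-fold apart (log2 difference -2.47 ± 0.14, adjusted p = 9.96e-06). The adipogenic samples were near the 139, 117 and 165 CPM of CON. Sesn3, a sestrin under control of FOXO factors, measured 149.8, 165 and 144 against 47.5, 42.8 and 35.3 CPM (log2 difference -1.85 ± 0.15, adjusted p = 6.36e-05). Over sterol and fatty acid synthesis, 14 of 17 tested genes had a positive difference, beside 1517 of all 3189 genes tested, with a median of 0.26. Of the 17, 14 were not called, and 2 enzymes of cholesterol synthesis were called higher in osteogenic medium. Msmo1 measured 1056, 1043 and 838 CPM in osteogenic and 375, 369.9 and 419 CPM in adipogenic medium (log2 difference 1.33 ± 0.12, adjusted p = 1.08e-04). Fdft1, squalene synthase, stood just past the threshold at 1.01 ± 0.11 and under it without the second adipogenic or the third osteogenic library, at 0.97 and 0.94, and also with all libraries under quantile normalization, at 0.95, or with the listed genes scaled to 1 common sum, at 0.94. Mylip, which degrades the LDL receptor, was the 1 gene of the list called higher in adipogenic medium (log2 difference -1.03 ± 0.20, adjusted p = 0.00843), and it lost its call without the first or the third osteogenic library, at -0.95 and -0.97, or without the third adipogenic library (adjusted p = 0.0596), and under quantile normalization, at -0.97.

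Few of the lineage genes had enough reads for the test. Of the adipogenic regulators and markers, 7 of 20 in the files passed the filter and 2 were called, beside 9.19% of all genes. Lpl, lipoprotein lipase, measured 559, 571 and 607 CPM in adipogenic and 267, 283 and 268 CPM in osteogenic medium (log2 difference -1.08 ± 0.10, adjusted p = 1.01e-04), both below the 721, 663 and 777 CPM of CON. Klf5, which promotes adipogenesis upstream of Pparg, was on the other side, with 53.4, 55.3 and 34.7 CPM in osteogenic and 22.5, 22.8 and 20.4 CPM in adipogenic medium (log2 difference 1.06 ± 0.21, adjusted p = 0.00819), and its call was lost without the first or the second osteogenic or the third adipogenic library (adjusted p up to 0.0594) and, at a log2 difference of 0.99, when the listed genes of each sample were scaled to 1 common sum. Pparg had 7, 3 and 2 reads in adipogenic and 0 in every osteogenic sample, too few for the test. Cebpa, with 0.783, 0.474 and 5.39 CPM in osteogenic and 1.88, 0.472 and 1.78 CPM in adipogenic medium, was not called (log2 difference 0.17 ± 0.54, adjusted p = 0.873). Cebpb, Cebpd and Runx2 were not analysed here.

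Of the osteogenic regulators and markers, 7 of 19 in the files passed and 2 were called, again in opposite directions and beside 9.19% of all genes. Hopx, a homeodomain cofactor, measured 5.33, 5.06 and 6.22 CPM in osteogenic and 1.99, 1.73 and 0.892 CPM in adipogenic medium (log2 difference 1.39 ± 0.27, adjusted p = 0.00783), and the difference was 3.36 at 12 h. Dlx3, a homeobox factor of bone and skin, was higher in adipogenic medium at this time, with 232, 229.6 and 234 against 95.6, 95.3 and 111 CPM (log2 difference -1.20 ± 0.12, adjusted p = 1.45e-04), and both media exceeded the 27.9, 29.4 and 31.7 CPM of CON. Sp7 had at most 2 reads in any of the 6 samples. Sox9, the master regulator of cartilage, measured 99.2, 99.5 and 103 CPM in osteogenic and 19.0, 17.6 and 14.4 CPM in adipogenic medium (log2 difference 2.50 ± 0.16, adjusted p = 1.56e-05), on either side of the 46.6, 46.8 and 50.8 CPM of CON and far below the 622, 627 and 561 CPM of chondrogenic medium. Sox11, another SOX factor of skeletal progenitors, measured 2.19, 6.32 and 5.67 against 0.111, 0.157 and 0.595 CPM (log2 difference 2.08 ± 0.36, adjusted p = 0.0046). It passed the filter through the osteogenic samples alone. Sox9 and Sox11 were 2 of 4 tested chondrogenic regulators and markers, beside 9.19% of all genes called. Runx3 and Scx were not called.

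Among homeobox factors, 5 of 13 tested were called, beside 9.19% of all genes. Hoxd13, which patterns the digits, had 19.9, 18.3 and 11.8 CPM in osteogenic and 1.88, 0.944 and 0.446 CPM in adipogenic medium (log2 difference 3.10 ± 0.32, adjusted p = 2.21e-04) and was called higher in osteogenic medium with Hopx. Zfhx2, Meox2 and Dlx3 were higher in adipogenic medium, with log2 differences of -1.57 ± 0.26, -1.24 ± 0.24 and -1.20 ± 0.12, and Meox2 lost its call without the third osteogenic library, at -0.97, or without the third adipogenic library (adjusted p = 0.0515). Klf4 and Epas1, both abundant, were not called: Klf4 measured 647, 676 and 847 CPM in osteogenic and 768, 757 and 771 CPM in adipogenic medium (log2 difference -0.09 ± 0.12), and Epas1, the hypoxia factor HIF-2 alpha, 1279, 1294 and 1315 and 1388, 1528 and 1406 CPM (log2 difference -0.15 ± 0.09). In all 6 samples both genes were higher than in CON, where Klf4 measured 217, 232 and 241 CPM and Epas1 366, 383 and 380.3 CPM.

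The study lists 142 transcription factors that it picked on these samples, so their share of calls is not independent evidence. Of these, 102 passed the filter, 13 were higher in osteogenic medium and 15 in adipogenic medium, beside 3.45% and 5.74% of all genes, with a median difference of -0.10. Next to the factors above, Bhlhe40, a repressor that feeds into the clock, measured 435, 422 and 442 CPM in osteogenic and 139, 132 and 153 CPM in adipogenic medium (log2 difference 1.61 ± 0.11, adjusted p = 2.24e-05). Foxn1, known from the thymus and hair follicle, measured 5.48, 8.53 and 9.41 against 0.663, 1.57 and 0.297 CPM (log2 difference 2.29 ± 0.33, adjusted p = 0.00166). In the other direction, Atoh8 measured 33.5, 24.9 and 23.9 CPM in adipogenic and 5.33, 7.43 and 13.6 CPM in osteogenic medium (log2 difference -1.61 ± 0.31, adjusted p = 0.00783). Zfp541 and L3mbtl1 were listed at 0 to 2 and 0 to 3 reads in osteogenic medium and at 11.4, 6.92 and 7.58 and 2.32, 1.57 and 3.12 CPM in adipogenic medium (adjusted p = 9.68e-05 and 0.00615).

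Jun, a component of the AP-1 factor, was the 1 immediate-early gene higher in adipogenic medium, with 31.9, 40.1 and 35.8 CPM against 6.89, 7.58 and 6.64 CPM in osteogenic medium (log2 difference -2.20 ± 0.19, adjusted p = 9.48e-05). Of the 11 genes of the list that were tested, 2 were called higher in osteogenic medium, Klf10, an early target of TGF-beta, and Spred2, an inhibitor of MAPK signalling. Over all genes tested, 3.45% were called in that direction and 5.74% in that of Jun. The median difference was 0.58, and 9 of the 11 had a positive difference, beside 1517 of all 3189 genes tested. Klf10 measured 8.77, 9.16 and 12.3 CPM in osteogenic and 2.21, 2.05 and 3.87 CPM in adipogenic medium (log2 difference 1.60 ± 0.27, adjusted p = 0.00465). The call of Spred2 (log2 difference 1.06 ± 0.27, adjusted p = 0.0304) was lost without 5 of the 6 single libraries (adjusted p up to 0.132). Dusp2, Dusp4, Dusp6, Dusp10 and Spry2, which also inhibit MAPK signalling, were tested and not called.

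Of 17 tested actin and contractile genes, the 2 called, Vcl and Tpm1, were higher in osteogenic medium, a share near the 9.19% of all genes tested. A positive difference was found in 13 of them, beside 1517 of all 3189 genes, and the median was 0.30. Vcl, vinculin of focal adhesions, measured 11.3, 12.2 and 12.9 CPM in osteogenic and 4.75, 2.83 and 2.68 CPM in adipogenic medium (log2 difference 1.60 ± 0.25, adjusted p = 0.00314), and Tpm1, a tropomyosin, 14.4, 18.5 and 11.8 and 4.97, 7.71 and 5.50 CPM (log2 difference 1.17 ± 0.25, adjusted p = 0.0141, and up to 0.0793 with 1 adipogenic library left out). Cspg4, the pericyte proteoglycan NG2, measured 115, 114 and 156 CPM in osteogenic and 43.6, 41.7 and 43.9 CPM in adipogenic medium (log2 difference 1.54 ± 0.16, adjusted p = 1.87e-04) and was the 1 marker of that list called. Among matrix proteases 3 of 12 were called, beside 9.19% of all genes, Adamts1 in one direction and Plau and Adamts4 in the other. Adamts4, also an aggrecan protease, measured 43.7, 40.1 and 38.5 CPM in adipogenic and 6.58, 6.0 and 8.99 CPM in osteogenic medium (log2 difference -2.37 ± 0.20, adjusted p = 9.48e-05), the reverse of Adamts1.

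The lists of stress, clock and cell cycle genes held from 0 to 3 calls each, beside 9.19% of all genes tested. Chac1, which degrades glutathione and is induced by ATF4, measured 237, 219.7 and 232 CPM in adipogenic and 96.2, 82.0 and 124 CPM in osteogenic medium (log2 difference -1.20 ± 0.16, adjusted p = 9.86e-04), both above the 25.9, 23.1 and 27.6 CPM of CON. Calr and Asns were called in the same direction at no more than 6.61 CPM (log2 differences -1.38 ± 0.29 and -1.24 ± 0.29), which makes 3 of 16 for the ATF4 and unfolded protein response, and both calls were lost without some single libraries (adjusted p up to 0.0554 and 0.0992). Calr passed the filter through the adipogenic samples alone. Ndrg1 was the 1 gene of 15 called among hypoxia and glycolysis genes, with 97.7, 96.6 and 106 CPM in adipogenic and 42.2, 47.4 and 51.3 CPM in osteogenic medium (log2 difference -1.08 ± 0.14, adjusted p = 8.02e-04). Of the clock genes, Bhlhe40 and Nr1d1 were called of 5, the latter higher in adipogenic medium (log2 difference -1.21 ± 0.30, adjusted p = 0.0246) at no more than 3.12 CPM and not called without some single libraries (adjusted p up to 0.102). Nr1d1 passed the filter through the adipogenic samples alone, and Arntl, not called, through the osteogenic samples alone. None of 11 DNA replication and 14 mitosis genes was called by limma, edgeR or DESeq2 (1 and 3 of them had an unadjusted p under 0.05 in limma, and 1 replication gene was called when the rows of a name were kept apart), and their median differences were 0.03 and 0.06.

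**Figure D3:**
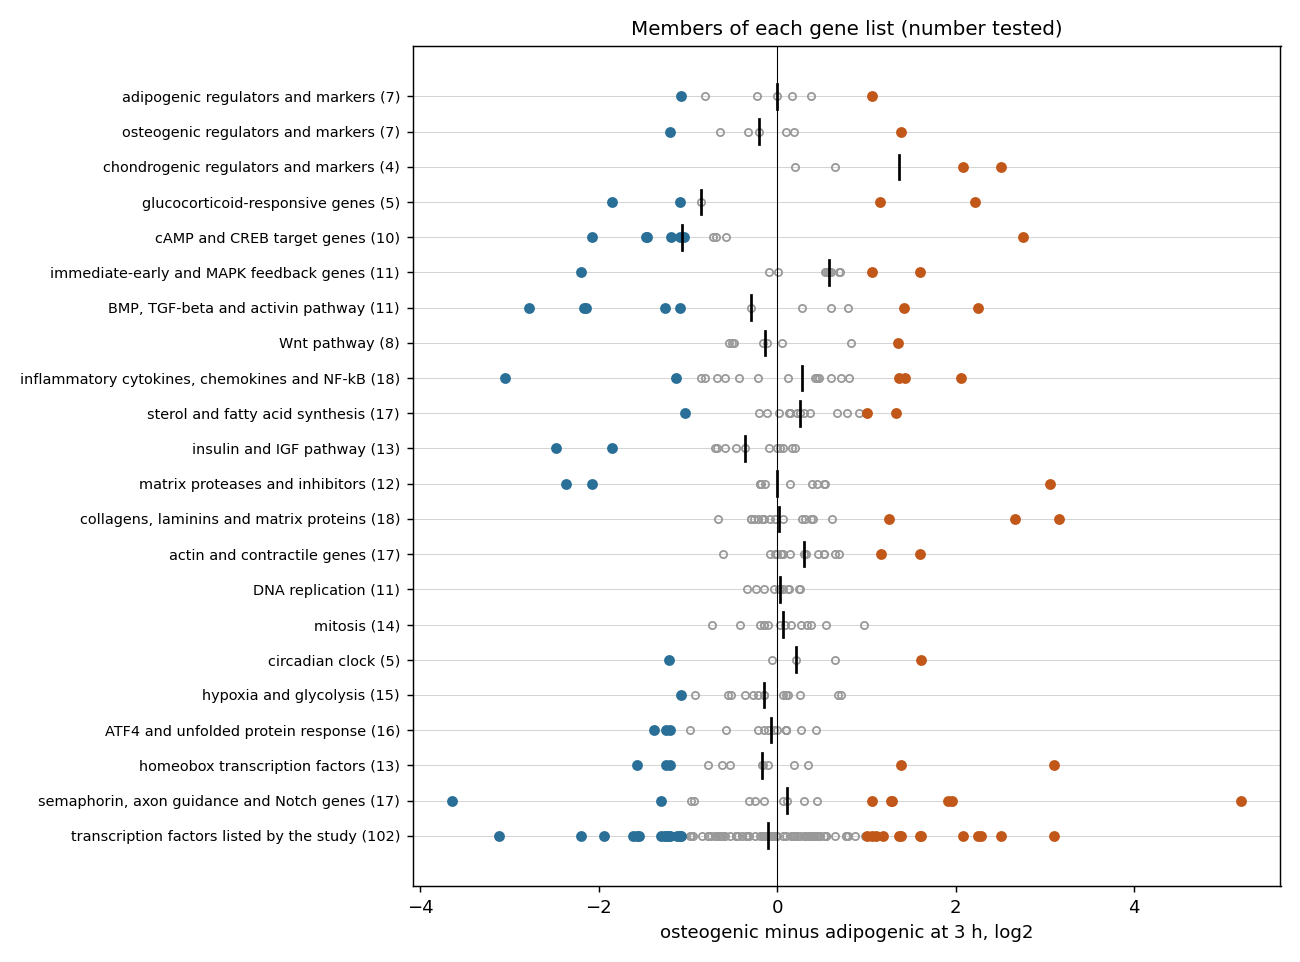
Each row is a gene list with the number of its members tested, and each circle a member at its difference of osteogenic minus adipogenic on the log2 scale. Filled circles are called, in the colour of the medium with the higher level, open circles are not, and the black bar is the median. The median of the cAMP and CREB list lies at -1.06, and the replication list has no filled circle.

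Some genes of the largest adipogenic differences were at or near 0 elsewhere. Stab1, a scavenger receptor, was listed at 11.4, 12.0 and 11.7 CPM in adipogenic and at 0, 0 and 0.415 CPM in osteogenic medium (adjusted p = 3.64e-05). MGC94891, an uncharacterised gene, was listed at 11.2, 12.6 and 9.37 against 0, 0.316 and 0.277 CPM (adjusted p = 4.42e-05), and Trim72, a membrane repair protein of muscle, at 14.6, 12.3 and 9.96 against 1.41, 0.158 and 0.138 CPM (adjusted p = 2.71e-04). Stab1, MGC94891 and Zfp541 had no read in CON. Of the genes called, 38 higher in adipogenic and 8 higher in osteogenic medium had no more than 3 reads in any sample of the lower group. Gramd1b, which moves cholesterol between membranes, measured 7.96, 7.24 and 8.63 CPM in adipogenic and 0.157, 0.948 and 0.277 CPM in osteogenic medium (log2 difference -2.65 ± 0.28, adjusted p = 2.21e-04), and Mn1, a transcriptional coregulator needed for skull bones, 90.1, 79.0 and 79.1 and 12.5, 7.58 and 19.5 CPM (log2 difference -2.65 ± 0.28, adjusted p = 2.72e-04).

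The undifferentiated samples give the starting level of each gene. For the 183 genes higher in adipogenic medium, the mean of CON was nearer to osteogenic medium in 130 (71.0%), against 46.3% of all genes tested. For the 110 genes higher in osteogenic medium, it was nearer to adipogenic medium in 66 and to osteogenic medium in 44 (40.0%). CON lay between the media in 86 of the 183 and in 58 of the 110, below both in 69 and 34 and above both in 28 and 18, whereas over all 3189 genes tested it lay between them in 595, below both in 1756 and above both in 838. Chondrogenic medium at 3 h was nearer to osteogenic medium in 129 of the 183 (70.5%) and in 68 of the 110 (61.8%), beside 50.5% of all genes tested. These are counts of positions on the log2(CPM + 1) scale, without a test. The filter used the osteogenic and adipogenic samples only. No sample of the lower group had more than 3 reads in 38 of the 183 and 8 of the 110 genes. For such genes a low level in CON or chondrogenic medium falls nearer to the lower group. The shares are thus partly set by the choice of genes.

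Part of the genes called at 3 h were called again at the later times. Of the 211 tested at 12 h, 92 were called in the same direction and 6 in the opposite one, while 16.9% of all genes tested were called at that time. Of 93 genes higher in osteogenic medium 47 were called the same way (9.33% of all genes were called in that direction), and of 118 higher in adipogenic medium 45 (7.56% of all genes). At 72 h, 59 of 202 were called in the same direction and 9 in the opposite one, against 16.2% of all genes called, with 37 of 88 genes on the osteogenic side (11.3% of all) and 22 of 114 on the adipogenic side (4.88% of all). This split depended on the scaling, since with median-ratio scaling it was 29 of 88 and 31 of 114. The difference itself changed between 3 h and 72 h in 151 of the 293 genes, where 15.9% of all 3774 genes tested for the change were called. The 293 genes were chosen on the 3 h samples that also enter this test, so nothing is read from that count.

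Named genes show each course. Gldn differed by 5.13 at 12 h (adjusted p = 9.69e-07) and by 2.13 at 72 h (adjusted p = 0.0297), and Cyr61 by 3.15 and then 0.78, where it was no longer called. Irak2 differed by 0.23 and 0.41 and Irs2 by 0.37 and 0.11 at 12 h and 72 h, so that neither was called at these times. Chac1, Jun and Dlx3 were called higher in adipogenic medium at 3 h and higher in osteogenic medium at 12 h, with differences of 2.42, 1.55 and 1.83 then. Dlx3 stayed so at 72 h (1.74, adjusted p = 0.00124), while Chac1 and Jun, at -0.08 and 0.12, were not called. Tsc22d3 differed by -2.31 at 12 h (adjusted p = 1.69e-06) and by 0.82 at 72 h, under the threshold of 1 log2 unit.

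**Figure D4:**
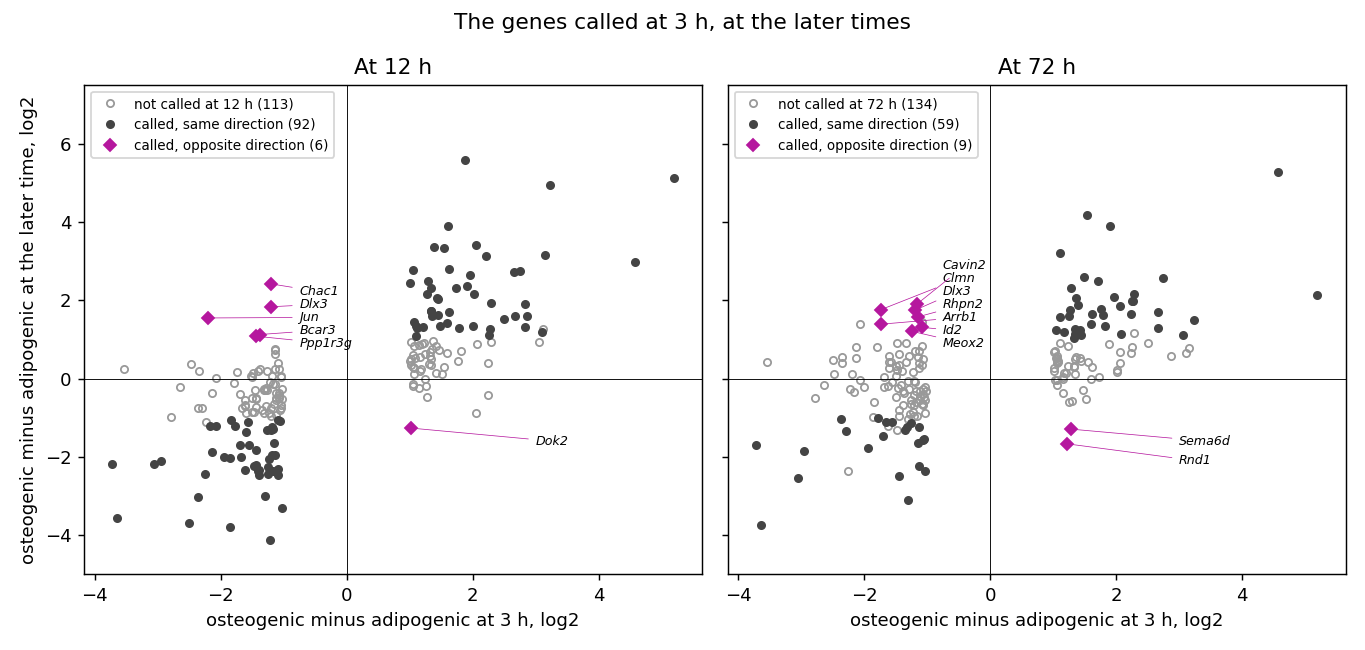
Each point is a gene called at 3 h, with its difference of osteogenic minus adipogenic at 3 h on the horizontal axis and at 12 h (left) or 72 h (right) on the vertical axis, both on the log2 scale. Filled circles were called again in the same direction, diamonds in the opposite one and open circles were not called. The diamonds number 6 at 12 h and 9 at 72 h, and Dlx3 is among them at both times.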

How the data were processed

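RNA of rat BMSCs was sequenced by the authors, and the methods name an mRNA library kit where the labels describe removal of ribosomal RNA. The submitters' processing notes name Trimmomatic, HISAT2 and StringTie, without versions, and the genome build is not given in the sources used here. The deposited values are labelled FPKM but were counts per 1000000 reads (CPM): all values were whole multiples, within 0.01 of a step, of what 1 read is worth in the sample, so reads could be recovered. A table held 10803 rows and 9999 gene names, and the 729 names on more than 1 row were summed. Another 15 names had been turned into dates by a spreadsheet and were kept as written.

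Genes that reached 1 CPM in 3 or more of the 6 samples were tested with limma 3.58.1 (trend, R 4.3.3) on log2(CPM + 1), osteogenic minus adipogenic, with Benjamini-Hochberg adjustment, and called at 1 log2 unit and an adjusted p under 0.05. The 12 h and 72 h samples were tested in the same way on their own, and the change between 3 h and 72 h in 1 model. A floor of 3 reads was 0.332 to 0.474 CPM. On simulated reads for this comparison and 3189 genes, limma recovered 46 of 67 genes changed by 1.5 log2 units, 50 of 63 by 2 and 68 of 70 by 3, and called 7 of 2989 unchanged genes. The simulated libraries varied independently for each gene, on genes already past the filter. None stood apart as the third osteogenic library did, so these rates may not hold for the data.

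Named were the 12 genes with the largest difference in each direction, up to 6 called members each way of each list, and 12 fixed genes, where the files hold them. A further 17 genes were named after their values were seen, and a selected gene is not reported here. Members, gene lists and tests were chosen with earlier results of these data known. Alternatives changed the pseudocount, filter, scaling, model, tool (edgeR 4.0.16, DESeq2 1.42.0), summing of rows and samples, 1 at a time, except that the model of all 30 samples also tested more genes (4363). Promoters were matched by RefSeq symbol or a single synonym. Calculations and plots used Python 3.11.15, numpy 2.4.6, pandas 2.3.3 and matplotlib 3.10.9.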

Additional observations from a re-analysis of the deposited data

Results flagged for a closer look

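The difference between osteogenic and adipogenic medium changed between 3 h and 72 h in 20 of the 29 genes examined, beside 15.9% of all genes tested for the change. The genes are those of the largest difference at 3 h, the tested genes named by the rule and the 9 called the opposite way at 72 h, so that a change was largely fixed by their choice and nothing is read from the count. A further 11 genes so chosen were left out, a rule added after seeing the data, since they did not pass the filter at 72 h or had a group with no more than 3 reads in any sample, and 10 of these were past the threshold. The change was tested with limma on 12 samples of both media and both times, at 1 log2 unit and an adjusted p under 0.05. Values are the difference at 3 h less that at 72 h, on the log2(CPM + 1) scale.

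The 9 genes called in opposite directions at the 2 times changed by -3.49 for Clmn, -3.12 for Arrb1, -2.45 for Meox2, -2.94 for Dlx3, -3.06 for Cavin2, -2.72 for Rhpn2, -2.39 for Id2, 2.88 for Rnd1 and 2.57 for Sema6d. Clmn encodes calmin and Arrb1 an arrestin, Meox2, Dlx3 and Id2 are transcription regulators, and these and Cavin2 and Rhpn2 were higher in adipogenic medium at 3 h and in osteogenic medium at 72 h, while Rnd1, a small GTPase, and the semaphorin Sema6d did the reverse. Meox2, for example, differed by -1.24 at 3 h and 1.21 at 72 h, and Rnd1 by 1.21 and -1.67. The calls at 3 h of Cavin2 and Rhpn2 were lost without some single libraries (adjusted p up to 0.175 and 0.0997), and that of Cavin2 also under some settings with all libraries, among them a pseudocount of 0.1 and edgeR, while those of Meox2, Id2 and Sema6d are described above.

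Among the genes higher in osteogenic medium at 3 h, the change was 3.07 for Gldn, 2.38 for Cyr61, 1.95 for Adamts1, 2.29 for Ptgir, 1.59 for Sox9 and 1.09 for Klf5, whose difference at 72 h was -0.03. Among those higher in adipogenic medium at 3 h, it was -2.01 for Gadd45a, -3.95 for Irak2, -2.29 for Bambi, -2.49 for Mn1 and -1.91 for Tsc22d3. The differences of Irak2 and Tsc22d3 at 72 h were 0.41 and 0.82, neither of them called.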

How the results depend on the processing

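The count of 293 genes kept within 1.5 times its value under every setting that used all libraries, from 272 without the filter on low values to 334 with a model of all 30 samples, which also tested 4363 genes in place of 3189, and edgeR and DESeq2 on the recovered reads called 301 and 321. Quantile normalization called 120 genes higher and 157 lower in osteogenic medium, and scaling the listed genes of each sample to 1 common sum 97 and 201. With single libraries left out, 197 to 347 genes were called, 78 to 115 higher in osteogenic and 119 to 232 higher in adipogenic medium, the lowest count without the third adipogenic and the highest without the third osteogenic library. The genes called again numbered 83 to 104 at 12 h and 50 to 61 at 72 h, with 4 to 6 and 6 to 11 in the opposite direction, and the change between 3 h and 72 h was called in 516 genes with a pseudocount of 0.1, in 494 with median-ratio scaling and in 488 to 706 with single libraries left out, which was added after seeing the data. Of the 102 genes selected for naming, 99 of them called, 75 kept their side of the threshold under every setting and 90 under those with all libraries. The sign changed for Cebpa alone, which is not called: with single libraries left out its difference ran from -0.49 (without the third osteogenic library) to 0.57, and it was -0.14 without the second adipogenic library. The replicate numbers did not pair the samples: same-numbered deviations correlated at -0.08, 0.13 and 0.05. With the replicate block, 294 genes were called, 110 higher and 184 lower in osteogenic medium. Depth limits genes of a few CPM, where 1 read is worth 0.111 to 0.158 CPM.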

Other observations

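The genes here were chosen after their values were seen, and the first 3 encode membrane receptors. Vipr2, a receptor of the peptides VIP and PACAP that raises cAMP, measured 13.9, 14.5 and 13.4 CPM in adipogenic and 1.41, 3.0 and 2.35 CPM in osteogenic medium (log2 difference -2.23 ± 0.26, adjusted p = 4.39e-04 by limma), beside 1.43, 0.836 and 1.82 CPM in CON. Lgr5, a receptor of R-spondins that strengthens Wnt signalling, measured 25.2, 25.5 and 20.7 against 4.07, 2.84 and 6.09 CPM (log2 difference -2.26 ± 0.26, adjusted p = 4.95e-04), with 30.1, 26.6 and 26.2 CPM in CON, so that it was near the starting level in adipogenic medium. Ccr1, a chemokine receptor, measured 83.5, 93.1 and 76.1 CPM in osteogenic and 20.0, 21.4 and 24.8 CPM in adipogenic medium (log2 difference 1.89 ± 0.16, adjusted p = 8.44e-05). The natriuretic peptides split between the media, with Nppb listed in osteogenic medium and Nppc, which acts on growth plate cartilage, higher in adipogenic medium at 15.7, 14.5 and 14.1 against 4.54, 4.58 and 7.47 CPM (log2 difference -1.30 ± 0.24, adjusted p = 0.00679).

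The other genes have different roles. Ajuba, a LIM protein that inhibits Hippo signalling, measured 239.9, 258 and 428 CPM in osteogenic and 78.7, 71.6 and 70.2 CPM in adipogenic medium (log2 difference 2.01 ± 0.21, adjusted p = 2.01e-04). Gja1, the gap junction protein connexin 43, measured 539.6, 559.5 and 595 CPM in adipogenic and 308, 256 and 148 CPM in osteogenic medium (log2 difference -1.31 ± 0.23, adjusted p = 0.00514), where the third osteogenic library was the lowest. Slc30a1, a zinc exporter that shares its metal-responsive regulator with the metallothioneins, measured 447, 445 and 460.4 CPM in adipogenic and 141, 167 and 133 CPM in osteogenic medium (log2 difference -1.62 ± 0.12, adjusted p = 3.64e-05), the same direction as Mt2A. Plpp3, a lipid phosphatase, measured 964, 1027 and 1059.7 CPM against 177, 173 and 185 CPM (log2 difference -2.50 ± 0.10, adjusted p = 6.69e-07).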
